A study of Mus musculus with 18 samples.

Results

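The genes described are 9 regulators and effectors of apoptosis, measured in mouse liver: the antiapoptotic genes Bcl2, Bcl2l1 (BCL-xL) and Mcl1, the BH3-only genes Bcl2l11 (BIM), Bid, Bbc3 (PUMA) and Pmaip1 (NOXA), the death receptor gene Fas and the initiator caspase gene Casp8. They were chosen by name, as every non-control probe whose transcript accession on the array maps to one of these symbols. That gave 15 probes, at least 1 for each of the 9 genes, and all 9 genes were among the 17721 genes tested. The 15 probes comprised 3 for Bcl2l1, 2 each for Bcl2, Bcl2l11, Mcl1 and Fas, and 1 each for Bid, Bbc3, Pmaip1 and Casp8.

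Gene expression was measured on single-colour Agilent arrays with RNA of 18 livers of female mice aged 6 weeks, 3 in each of 6 groups. The Nrf1 line, of mixed strain, comprised Nrf1 CKO livers with the genotype Nrf1(dN/-)::Alb-Cre and Nrf1 Control livers with the genotype Nrf1(dN/+), so that both groups carried a dN allele and only the mutant group Alb-Cre. The Nrf2 line, of strain C57BL/6, comprised Nrf2 KO livers, Nrf2(-/-), and Nrf2 Control livers, Nrf2(+/+). The Keap1 line, of mixed strain, comprised Keap1 KD livers, Keap1(Kd/-), and Keap1 Control livers, Keap1(Kd/+), so that its control also carried a Kd allele. Cre under the albumin promoter is active in hepatocytes, whereas whole liver also holds other cells. In such bulk RNA, fewer cells of a type and less RNA per cell cannot be told apart. Whether the 3 samples of a group were taken from different mice is not in the labels, and the p-values therefore reflect sample-to-sample spread that could be technical in part or whole.

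Apoptosis through mitochondria is set by the balance within the BCL2 family. BCL2, BCL-xL and MCL1 hold back the pore-forming proteins BAX and BAK, and BH3-only proteins bind the antiapoptotic members or activate the pore formers. Fas and caspase 8 form a second route from the cell surface, and cleavage of BID by caspase 8 joins it to the mitochondria, a link that hepatocytes are known to depend on. PUMA, NOXA, BAX, FAS and the death receptor encoded by Tnfrsf10b are known targets of p53. KEAP1 directs NRF2 to degradation, and both NRF1 and NRF2 activate genes through antioxidant response elements in DNA.

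Levels are given as log2 of the background-corrected signal minus log2 of the array's 75th percentile, so that 0 is the brightness of that percentile. They were not compared between genes, since probes differ in brightness. A change is the mutant mean minus the mean of its own line's control on this log2 scale, given with its standard error (SE) from limma. It was called at a Benjamini-Hochberg adjusted p under 0.05 over all 17721 genes. On the arrays 21668 to 28213 spots were well above background, and the brightest probe of each of the 9 genes was well above background on all 18 arrays and saturated on none. The targeted genes followed the labels: Nfe2l1, which encodes NRF1, was not well above background on any of the 3 Nrf1 CKO arrays and was at least 469-fold lower than in the control, Nfe2l2 (NRF2) differed by -8.20 in Nrf2 KO, where 1 of 3 arrays was above background, and Keap1 by -2.39 in Keap1 KD. All 6 hepatocyte markers found on the array were measured in every line.

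In the Nrf1 CKO liver, Pmaip1 was the member that passed the test, and it rose by 1.26 on the log2 scale (SE 0.31, adjusted p 0.0142). That was 1 of 9 members called higher and 0 called lower, against 7.99% of all genes called higher, 10.9% called lower and 18.9% in either direction. The share of members called in either direction was therefore no larger than that of all genes, and the share called higher rests on 1 member. At an unadjusted p under 0.05 the Nrf1 CKO count was 4 of 9, beside 6143 of the 17721 genes. In Nrf2 KO, 0 of 9 members were called, where 0.00564% of genes were called higher, 0.0564% lower and 0.0621% in all. There the unadjusted count was 3 of 9, beside 1576 of the 17721 genes. In Keap1 KD, 0 of 9 members were called, where 0.948% of genes were called higher, 4.58% lower and 5.52% in all. An unadjusted p under 0.05 was reached by 0 of 9 members, beside 2980 of the 17721 genes. The median change of the 9 members was 0.11 in Nrf1 CKO, 0.13 in Nrf2 KO and -0.10 in Keap1 KD, beside -0.09, 0.01 and 0.00 for all genes tested.

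**Figure D1:**
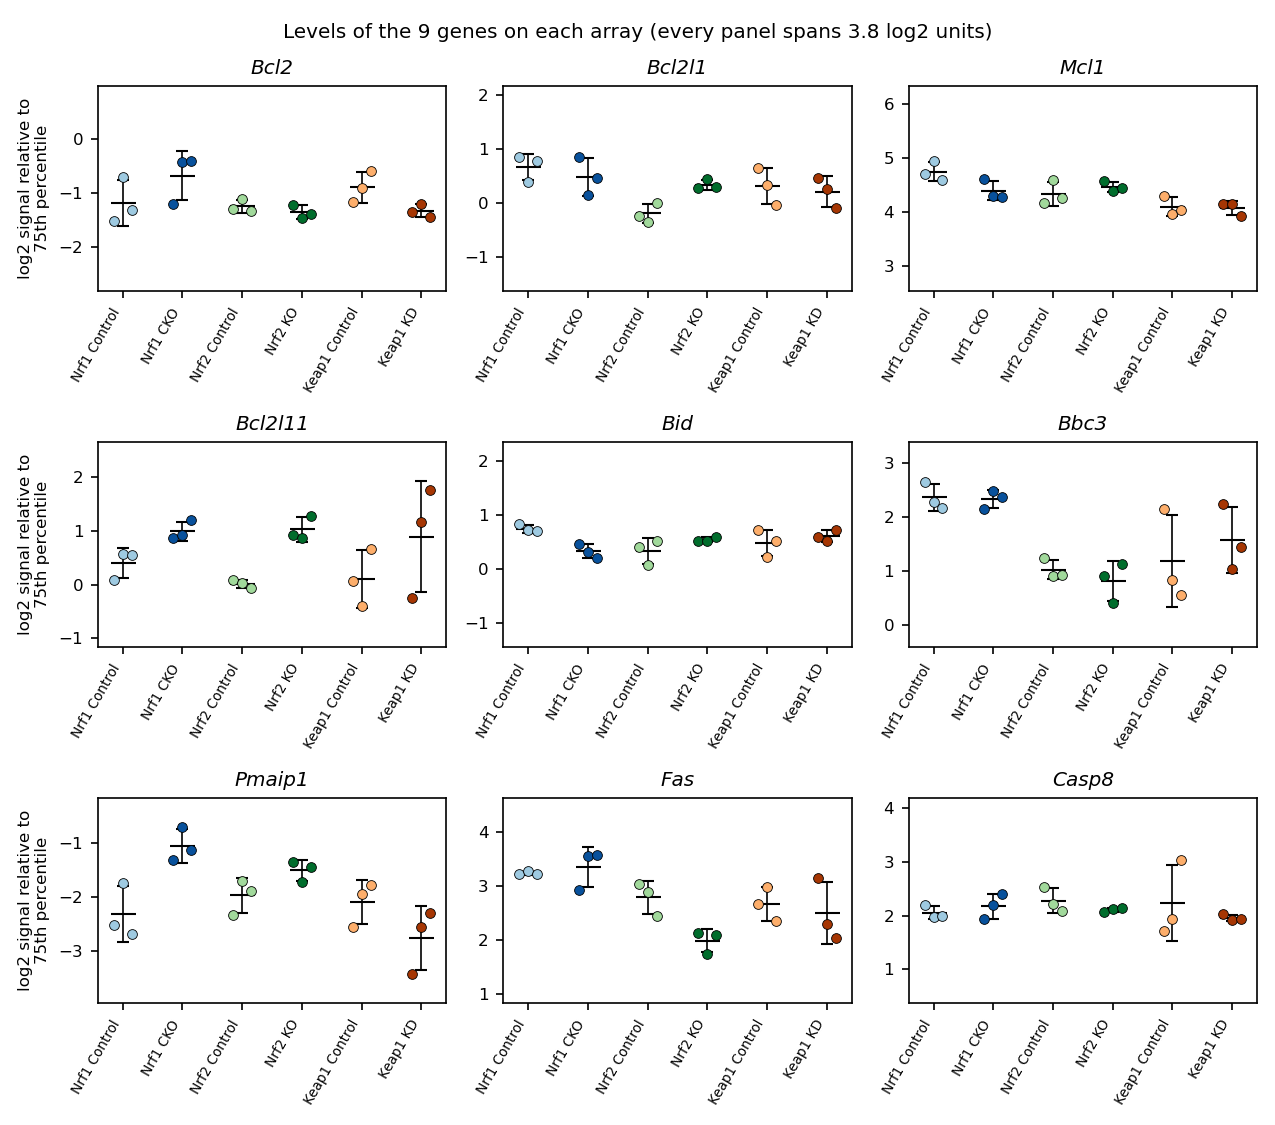
Level of each of the 9 genes on its brightest probe, in log2 units above or below the 75th percentile of its array, on the 3 arrays of each of 6 groups (points), with the mean and SD (bars). The 3 Nrf1 CKO points of Pmaip1 lie above the 3 of Nrf1 Control, the 3 Nrf2 KO points of Fas lie below those of Nrf2 Control, and 1 Keap1 Control array stands apart for Casp8.

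**Figure D2:**
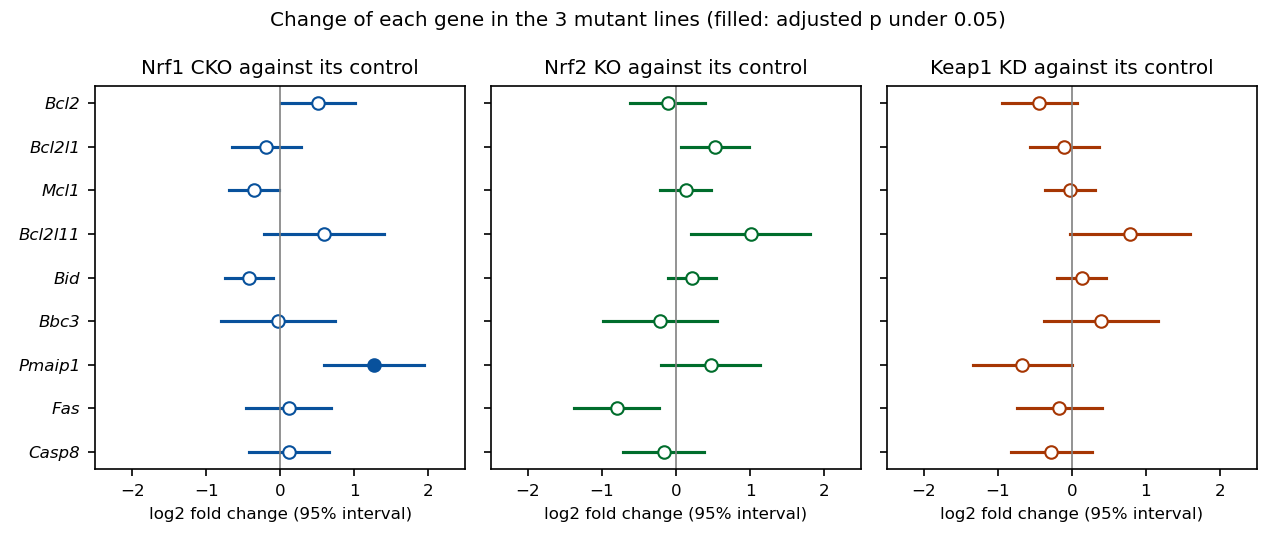
Change of each gene in Nrf1 CKO, Nrf2 KO and Keap1 KD against the control of its line, as log2 fold change with its 95% interval from limma; filled points have an adjusted p under 0.05. Of the 27 changes shown, Pmaip1 in Nrf1 CKO, at 1.26, is the filled one.

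The antiapoptotic genes are described first. Bcl2, which encodes the protein the family is named for, had levels of -1.53, -0.72 and -1.33 in Nrf1 Control and -1.20, -0.43 and -0.41 in Nrf1 CKO on its brightest probe. The groups overlapped, with 1 control array above the lowest Nrf1 CKO array, and the change of 0.51 (SE 0.24, 95% interval 0.01 to 1.01) had an adjusted p of 0.139. The second Bcl2 probe, designed on another transcript accession, gave -1.91, -1.42 and -1.91 in the control and -1.33, -0.52 and -0.70 in Nrf1 CKO. There all 3 mutant arrays lay above all 3 control arrays, and the change of 0.89 passed the test over the 23554 probes tested (adjusted p 0.00999). The call of Bcl2 therefore turned on the probe: the mean of the 2 probes gave 0.70 (adjusted p 0.0364), and leaving out Nrf1 CKO array 1 raised the change on the brightest probe to 0.77 (adjusted p 0.0236).

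In the Nrf2 line, Bcl2 lay at -1.31, -1.11 and -1.33 in the control and at -1.22, -1.47 and -1.40 in the knockout, a change of -0.11 (adjusted p 0.934) between overlapping groups. In Keap1 KD its levels of -1.35, -1.21 and -1.44 all lay below the control's -1.18, -0.92 and -0.60. That change of -0.44 did not pass the test (adjusted p 0.387), and the second probe gave a change of opposite sign, 0.16.

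Bcl2l1 encodes BCL-xL, an antiapoptotic protein on which hepatocyte survival is known to rest. Its levels were -0.23, -0.34 and 0.01 in Nrf2 Control and 0.28, 0.45 and 0.30 in Nrf2 KO. All 3 knockout arrays lay above all 3 control arrays, and the other 2 probes also gave higher values in the knockout, by 0.47 and 0.40. The change of 0.53 (SE 0.22, 95% interval 0.06 to 0.99) had an unadjusted p of 0.0284 and did not pass the test over all genes (adjusted p 0.502). In Nrf1 CKO (0.85, 0.15 and 0.47, control 0.85, 0.40 and 0.78) the change was -0.19, with -0.18 and -0.11 on the other probes. In Keap1 KD (0.48, 0.26 and -0.08, control 0.65, 0.33 and -0.03) the brightest probe changed by -0.10, whereas the other probes gave -0.76 and -0.56 (adjusted p over all probes 0.118 and 0.138). The probes of Bcl2l1 thus gave like values in 2 lines and unlike values in Keap1 KD.

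The promoters of Bcl2l1 and Bcl2 are shown because BCL-xL is the member whose promoter held the core of the element that NRF1 and NRF2 bind, and Bcl2 is a member of the same class without it. Sequences are from RefSeq (GRCm38.p6), 250 bases before the annotated start, 5′ to 3′ on the gene's strand, and capitals mark the match to TGACNNNGC, which was searched on both strands.
Bcl2l1, chr2:152828490-152828739, minus strand: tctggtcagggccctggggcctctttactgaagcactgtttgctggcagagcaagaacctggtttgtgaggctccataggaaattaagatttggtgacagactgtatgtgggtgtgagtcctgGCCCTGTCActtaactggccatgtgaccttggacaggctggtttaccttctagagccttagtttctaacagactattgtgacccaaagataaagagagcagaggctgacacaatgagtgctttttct
Bcl2, chr1:106714291-106714540, minus strand: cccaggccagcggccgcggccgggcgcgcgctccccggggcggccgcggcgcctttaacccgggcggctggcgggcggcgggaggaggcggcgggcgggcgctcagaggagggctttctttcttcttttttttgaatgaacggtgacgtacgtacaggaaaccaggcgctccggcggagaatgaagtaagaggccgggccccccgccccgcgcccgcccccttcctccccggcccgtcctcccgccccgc

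The match in the Bcl2l1 window lies on the opposite strand, where it reads TGACAGGGC, and begins 127 bases before the start. It was in 1 of the 3 Bcl2l1 windows, which belong to separate annotated starts. Windows of 8 members (all but Pmaip1), 13 in all, were searched over 250 bases before and 50 after each start, and Bcl2l1 was the 1 member of 8 with a match. Over all 32851 windows 12.4% held the core, and 14.0% of 27025 genes had at least 1 window with it. The p53 half-site, searched by its published consensus on both strands, was found in 0 of the 8 members, in 8.4% of all windows and in at least 1 window of 9.6% of genes. A match is a description of the sequence and not of binding, and its absence says only that these letters are not in the window. By base composition the Bcl2 window was 76.0% GC and the Bcl2l1 window shown 49.3%, with a median of 52.7% over all windows.

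Mcl1 encodes a short-lived antiapoptotic protein that hepatocytes also require. In the Nrf1 line its levels were 4.70, 4.95 and 4.59 in the control and 4.60, 4.30 and 4.28 in Nrf1 CKO, which overlapped at the lowest control array. The change of -0.35 (SE 0.16, unadjusted p 0.042) had an adjusted p of 0.128, and the second Mcl1 probe gave 0.12. In the other lines Mcl1 lay between 3.93 and 4.59 with changes of 0.13 in Nrf2 KO (adjusted p 0.877) and -0.03 in Keap1 KD (adjusted p 0.968), with overlapping groups in both.

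The BH3-only genes gave the widest spread of changes. Pmaip1, encoding NOXA, which binds MCL1, had levels of -2.51, -1.73 and -2.68 in Nrf1 Control and -1.31, -0.70 and -1.12 in Nrf1 CKO. All 3 Nrf1 CKO arrays lay above all 3 control arrays, and the 95% interval of the change ran from 0.59 to 1.93. Across the 6 groups, Pmaip1 was highest in Nrf1 CKO (-1.04 ± 0.31, SD, n = 3). Then came Nrf2 KO (-1.50 ± 0.19), Nrf2 Control (-1.97 ± 0.32), Keap1 Control (-2.09 ± 0.40), Nrf1 Control (-2.31 ± 0.51) and Keap1 KD (-2.75 ± 0.59), with neighbouring means in this order within 1 SD of each other except for the pairs around Nrf2 KO. The 3 controls lay within their spread of each other.

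In the Nrf2 line Pmaip1 lay at -2.32, -1.69 and -1.88 in the control and -1.35, -1.71 and -1.43 in the knockout, a change of 0.47 (adjusted p 0.726). In the Keap1 line it lay at -2.54, -1.94 and -1.77 in the control and -3.41, -2.55 and -2.30 in the knockdown, a change of -0.67 (SE 0.31, 95% interval -1.34 to 0.00, adjusted p 0.299). Both pairs of groups overlapped. The change in Nrf1 CKO exceeded that in Keap1 KD by 1.93 (SE 0.45, adjusted p 0.0239 for the difference itself), which made Pmaip1 the 1 member of 9 with a difference between those lines past the test. Of all genes 6.92% passed it. For Nrf1 CKO against Nrf2 KO (5.58% of all genes) and Nrf2 KO against Keap1 KD (3.09%), 0 of 9 members passed, and the Pmaip1 differences were 0.80 (adjusted p 0.287) and 1.14 (adjusted p 0.193).

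The call of Pmaip1 in Nrf1 CKO was lost without Nrf1 Control array 1 (change 1.16, adjusted p 0.0654), without Nrf1 CKO array 2 (1.09, adjusted p 0.0733) and without Nrf1 CKO array 3 (1.30, adjusted p 0.0533). The difference from Keap1 KD was lost without each of these arrays (adjusted p 0.0591 to 0.0678) and without Keap1 Control array 2 (1.86, adjusted p 0.051). The 3 Nrf1 CKO arrays and 1 control array were on one slide and the other 2 control arrays on another, all scanned on the same date. Within the shared slide the change was 1.64, and with slide as a block it was 1.64 with an adjusted p of 0.144. With normexp the change was 0.75 and remained called (adjusted p 0.0106).

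**Figure D3:**
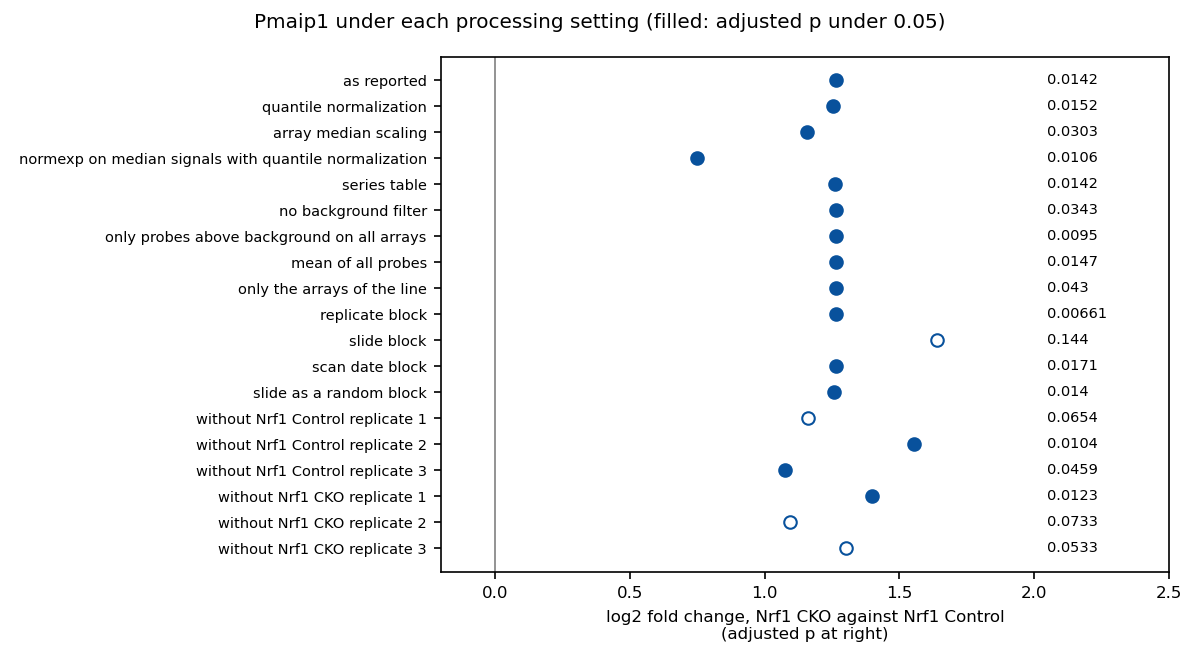
Change of Pmaip1 in Nrf1 CKO against Nrf1 Control under each processing setting and with each array left out, as log2 fold change, with the adjusted p at the right; filled points have an adjusted p under 0.05. All values lie above 0, between 0.75 and 1.64, and 4 of the 19 points are open.

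The 3 genes with the most similar levels to Pmaip1 over the 18 arrays, among 12833 genes with a symbol, were Galnt6 (Pearson r 0.934), Bcl2a1c (0.917) and Bcl2a1b (0.915). Galnt6 encodes a glycosyltransferase of O-linked glycans, and its change in Nrf1 CKO was 0.66 (adjusted p 0.0631). The Bcl2a1 genes encode the antiapoptotic protein A1, known from cells of the blood and immune system. These correlations describe arrays that share their groups and scaling, and they carry no test.

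Bcl2l11 encodes BIM, a BH3-only protein that binds all antiapoptotic members. Its levels were 0.09, 0.02 and -0.06 in Nrf2 Control and 0.93, 0.86 and 1.28 in Nrf2 KO. The groups did not overlap, and the change of 1.01 (SE 0.38, 95% interval 0.20 to 1.81, unadjusted p 0.0179) did not pass the test over all genes (adjusted p 0.441). In the Nrf1 line the levels were 0.08, 0.56 and 0.55 in the control and 0.86, 0.91 and 1.19 in Nrf1 CKO, again without overlap, with a change of 0.59 (adjusted p 0.286). In the Keap1 line the control gave 0.06, -0.41 and 0.66 and the knockdown -0.24, 1.15 and 1.76, the widest spread of any group for this gene. That change of 0.79 (adjusted p 0.316) became 1.35 (adjusted p 0.0204) without Keap1 KD array 1, the array with the fewest spots above background. The second Bcl2l11 probe, above background on 1 to 3 arrays of each group, gave 0.51, 0.09 and 0.05 in Nrf1 CKO, Nrf2 KO and Keap1 KD, so that the Nrf2 KO value of the brightest probe was not seen on it.

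Bid encodes the BH3-only protein cut by caspase 8. Its levels were 0.84, 0.71 and 0.70 in Nrf1 Control and 0.47, 0.31 and 0.21 in Nrf1 CKO. All mutant arrays lay below all control arrays, and the change of -0.42 (SE 0.15, 95% interval -0.75 to -0.09, unadjusted p 0.015) had an adjusted p of 0.0662, short of the threshold. In Nrf2 KO (0.52, 0.52 and 0.60, control 0.41, 0.07 and 0.52) the change was 0.21 and in Keap1 KD (0.60, 0.52 and 0.73, control 0.72, 0.22 and 0.51) it was 0.13, with overlap in both. The difference between the changes in Nrf1 CKO and Nrf2 KO was -0.63 (adjusted p 0.0932).

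Bbc3, encoding PUMA, had levels of 2.66, 2.28 and 2.17 in Nrf1 Control and 2.15, 2.49 and 2.39 in Nrf1 CKO. The groups overlapped, and the change was -0.03 (adjusted p 0.966), a value whose sign turned with quantile normalization (0.13). In the Nrf2 line it lay at 1.24, 0.92 and 0.94 in the control and 0.91, 0.41 and 1.14 in the knockout, and in the Keap1 line at 2.16, 0.84 and 0.57 in the control and 2.25, 1.04 and 1.45 in the knockdown. These changes were -0.21 and 0.39, both with overlapping groups. The 2 groups of the Nrf1 line had the highest Bbc3 means of the 6 groups, 2.37 ± 0.25 and 2.34 ± 0.17 (SD, n = 3). The design mixes this difference between lines with scan date, and against the Nrf2 line also with strain. The Keap1 line, like the Nrf1 line, is labelled mixed strain. In the Keap1 line array 1 of each group stood above the other 2.

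Of the death receptor route, Fas had levels of 3.04, 2.88 and 2.45 in Nrf2 Control and 2.13, 1.75 and 2.09 in Nrf2 KO. All 3 knockout arrays lay below all 3 control arrays, and the change of -0.80 (SE 0.27, 95% interval -1.38 to -0.23, unadjusted p 0.0095) did not pass the test over all genes (adjusted p 0.390). The second Fas probe, on another transcript accession, gave -0.22 in Nrf2 KO. In Nrf1 CKO (2.93, 3.55 and 3.57, control 3.22, 3.27 and 3.22) Fas changed by 0.11 and in Keap1 KD (3.15, 2.31 and 2.04, control 2.67, 2.98 and 2.36) by -0.17, with overlapping groups in both.

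Casp8 encodes caspase 8, the protease recruited to the Fas receptor. Its levels were 2.20, 1.97 and 2.0 in Nrf1 Control and 1.93, 2.19 and 2.39 in Nrf1 CKO, and 2.53, 2.21 and 2.08 in Nrf2 Control and 2.06, 2.12 and 2.14 in Nrf2 KO. In Keap1 KD it lay at 2.03, 1.91 and 1.93 and in Keap1 Control at 1.72, 1.94 and 3.03, so that control array 3, the array with the most spots above background, stood alone. The changes of 0.12, -0.17 and -0.27 had adjusted p-values of 0.784, 0.902 and 0.686, and without that control array the Keap1 KD change was 0.13.

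**Figure D4:**
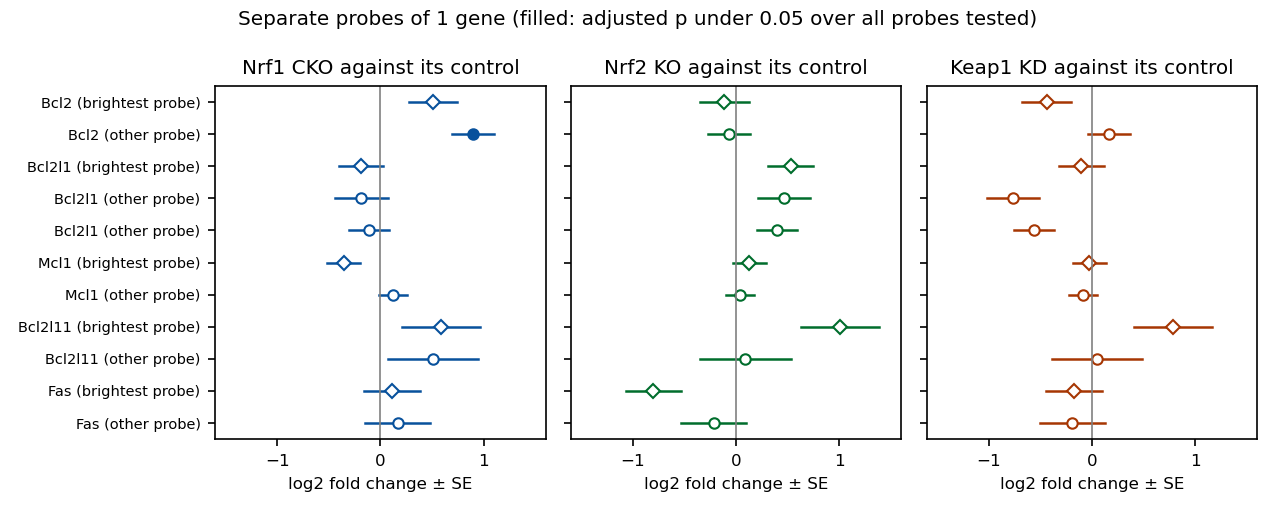
Change measured by each probe of the 5 genes with more than 1 probe, in Nrf1 CKO, Nrf2 KO and Keap1 KD against their controls, as log2 fold change with its SE; diamonds are the brightest probe, circles the others, and filled symbols have an adjusted p under 0.05 over all probes tested. The filled symbol is the second Bcl2 probe in Nrf1 CKO at 0.89, and the probes of Bcl2l11 and Fas lie apart in Nrf2 KO.

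Counted without a test, 3 of 9 members had all 3 mutant arrays beyond all 3 control arrays in Nrf1 CKO (Pmaip1 and Bcl2l11 above, Bid below), where 43.4% of all genes did. In Nrf2 KO the count was also 3 of 9 (Bcl2l1 and Bcl2l11 above, Fas below), beside 20.8% of all genes. In Keap1 KD it was 1 of 9 (Bcl2, below), beside 17% of all genes. No slide or scan date held both Nrf2 groups, so for Bcl2l1, Bcl2l11 and Fas batch and group cannot be told apart within that line. In the Keap1 line 1 array of each group shared a slide. Keap1 KD arrays 1 and 2 were on a slide and date without a Keap1 Control array, and Keap1 Control array 1 on a date without Keap1 KD. Batch and group are therefore largely mixed in the Keap1 line too. In data simulated from these arrays, 40.5%, 41.0% and 38.5% of genes changed by 1 on the log2 scale were recovered in the Nrf1, Nrf2 and Keap1 comparisons. Each simulation changed 200 of the 17721 genes, whereas 3348, 11 and 979 were called in the data. The adjusted threshold depends on how many genes change, so these shares are not recovery rates of the comparisons reported here.

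The other genes of the pathway were read from 8 lists of 51 genes, of which 48 were on the array and 44 tested. Bcl2l10, Hrk, Tnf and Trp63 were not well above background on all arrays of any group, and no probe was matched for Bcl2a1a, Bcl2a1d and Bok. In Nrf1 CKO 9 of 44 were called higher and 5 lower, a median change of 0.01, beside the 18.9% of all genes called. In Nrf2 KO 0 of 44 were called, and in Keap1 KD 1 was called higher, with medians of -0.06 and 0.03. Of the 14 called in Nrf1 CKO, Bax, Birc5, Bnip3, Mdm2 and Tnfrsf10b were called with each of the 6 arrays of the line left out in turn. Tnfrsf10b, 1 of the 9 called higher, was tested through Nrf1 CKO alone, the group where it was high. Its calls are not independent of that filter. The count of these genes called was 7 without Nrf1 Control array 1, 6 without Nrf1 CKO array 2, 6 without Nrf1 CKO array 3 and 0 with slide as a block. Apaf1, Bad, Bcl2a1b, Bcl2a1c, Cflar, Faim and Tnfrsf1a each lost their call without each of those 3 arrays (adjusted p 0.0601 to 0.169), Endog without Nrf1 CKO array 3 (0.0575) and Bnip3l without Nrf1 CKO array 2 (0.051).

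Of the pore-forming effectors, Bax rose in Nrf1 CKO, from 1.36, 1.54 and 1.66 to 2.25, 2.55 and 2.84, a change of 1.03 (SE 0.15, adjusted p 0.001). The 2 groups lay well apart. Bak1, the second pore-forming gene, changed by 0.31 (adjusted p 0.443). The change of Bax exceeded that in Nrf2 KO by 1.11 (adjusted p 0.0113) and that in Keap1 KD by 1.16 (adjusted p 0.0104). Bax was named for its call in Nrf1 CKO, so these differences reuse the values that chose it.

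Of the antiapoptotic relatives, Bcl2a1b rose by 1.68 (SE 0.41, adjusted p 0.013) and Bcl2a1c by 1.53 (SE 0.38, adjusted p 0.0152), and Bcl2l2, which encodes BCL-w, changed by -0.43. The Bcl2a1 genes are near-identical copies, so which of them gave the signal is uncertain. Both calls were lost with the line's arrays alone (adjusted p 0.0745 and 0.0611), and Bcl2a1c rose by 0.61 with normexp and was not above background on all arrays of every group. Like Pmaip1, Bcl2a1b was high on control array 2 (-0.29, 1.52 and -0.23), and that array lay above Nrf1 CKO array 1 (1.44, 2.45 and 2.15).

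The BH3-only and BH3-like genes beyond the 9 fell where they were called. Bnip3, a mitochondrial protein of mitophagy and cell death, went from 6.49, 6.25 and 6.33 to 5.15, 4.35 and 4.12, with no overlap and a change of -1.81 (SE 0.22, adjusted p 0.00035). Its relative Bnip3l changed by -0.78 (adjusted p 0.00923; second probe -0.95) and Bad, whose protein is held inactive by growth factor signalling, by -0.79 (adjusted p 0.045). The change of Bad was -0.27 with normexp (adjusted p 0.21), and its call was also lost without the background filter (0.0695) and with the scan date block (0.0536). Bad and Bnip3l were below the size rule for named genes and are given because they complete the list's calls.

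Among apoptosome and mitochondrial factors, Endog, which encodes a mitochondrial nuclease, fell by 0.95 on the log2 scale (SE 0.21, adjusted p 0.00836), and Apaf1, the scaffold of the apoptosome, rose by 0.87 (adjusted p 0.0313), or by 0.40 with normexp; the call of Apaf1 was lost with array median scaling (adjusted p 0.0636), without the background filter (0.0639) and with the line's arrays alone (0.0649). Of the inhibitor of apoptosis genes, Birc5 (survivin), which also serves in cell division, rose from 0.46, 0.74 and 1.16 to 3.11, 2.80 and 2.69, a change of 2.08 (SE 0.36, adjusted p 0.00271). The 4 others of that list were not called.

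Of the death receptor genes, Tnfrsf10b was not well above background on any Nrf1 Control array and was on all 3 Nrf1 CKO arrays, where it was at least 3.44-fold higher. It was not well above background on all arrays of any other group, so it was tested through Nrf1 CKO alone, and its fitted log2 change was 3.17 as reported and 0.70 with normexp. Tnfrsf1a, the receptor of tumour necrosis factor, rose by 0.54 (adjusted p 0.0257) and Faim, an inhibitor of Fas signalling, by 0.57 (adjusted p 0.0273). Cflar, which encodes the caspase 8 inhibitor FLIP, fell by 0.65 on its brightest probe (adjusted p 0.0225), and its 3 other probes gave -0.15, -0.22 and -0.42, none of them called. Faim, Tnfrsf1a and Cflar were also lost without the background filter (adjusted p 0.0543 to 0.0636) and with the line's arrays alone (0.0534 to 0.0904), Faim and Tnfrsf1a with array median scaling (0.124 and 0.184), and Cflar with quantile normalization, with normexp and with the mean of its probes (changes of -0.38, -0.38 and -0.36). Apaf1, Tnfrsf1a, Faim and Cflar likewise lay below the size rule and were chosen after their values were seen. In Keap1 KD Tnfrsf1a rose from 3.30, 3.02 and 2.87 to 3.56, 3.96 and 3.71, a change of 0.68 (SE 0.15, adjusted p 0.0171). That call was lost without Keap1 Control array 3 (0.59, adjusted p 0.081) or Keap1 KD array 2 (0.58, adjusted p 0.0555). It was lost too with quantile normalization (0.56, adjusted p 0.0732) and with the line's arrays alone (adjusted p 0.218). The slide and scan date blocks, with changes of 0.74 and 0.75, also lost it.

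Of the p53 list, Mdm2, the ligase that degrades p53, rose in Nrf1 CKO from 0.27, 0.40 and 0.73 to 1.18, 1.30 and 1.81, a change of 0.96 (SE 0.18, adjusted p 0.00376; second probe 0.69). Trp53 itself changed by 0.35 (adjusted p 0.338) and Cdkn1a, which encodes the cell cycle inhibitor p21, went from -1.57, -0.68 and -0.21 to 0.76, 0.88 and 1.42. All 3 Nrf1 CKO arrays of Cdkn1a lay above the control arrays, and the change of 1.85 did not pass the test with the spread shared by all 6 groups (SE 1.24, adjusted p 0.308), to which the Keap1 line, ranging from -2.92 to 3.04, contributes. With the Nrf1 arrays alone it passed (adjusted p 0.034; 0.269 to 0.717 under the other settings with all arrays kept). Of the known p53 targets among the 9 members, Pmaip1 was called and Bbc3 (-0.03) and Fas (0.11) were not.

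**Figure D5:**
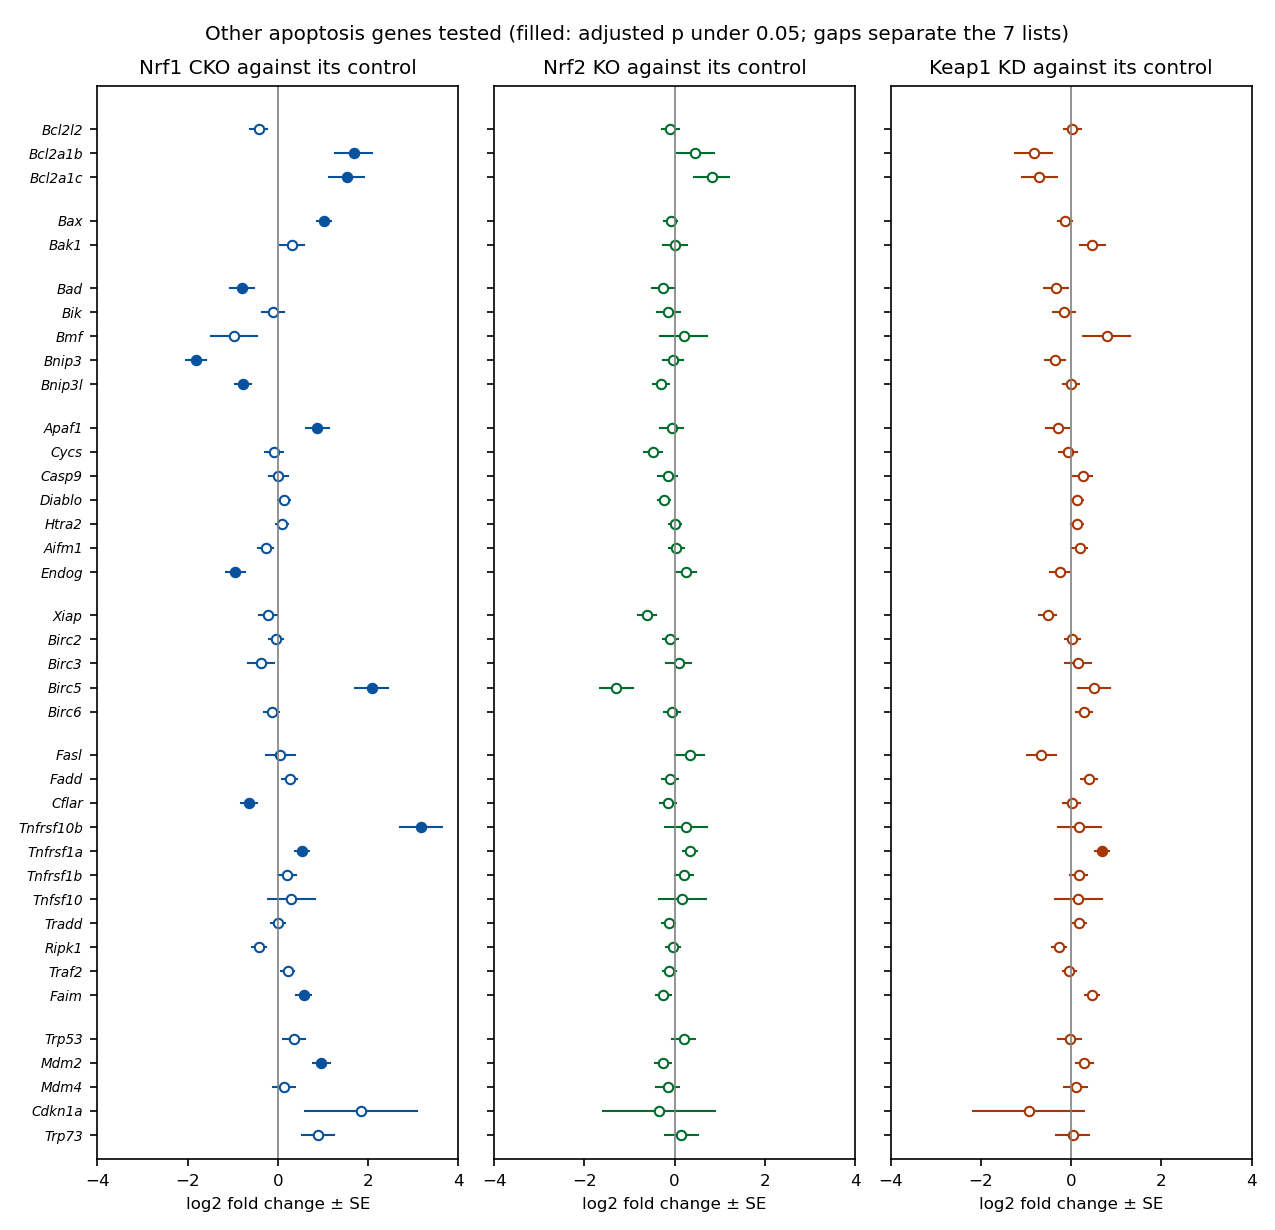
Change of 38 of the other apoptosis genes tested, grouped by list (7 of the 8 lists), in Nrf1 CKO, Nrf2 KO and Keap1 KD against their controls, as log2 fold change with its SE; filled points have an adjusted p under 0.05. The Nrf1 CKO panel has 14 filled points, from Bnip3 at -1.81 to Tnfrsf10b, whose fitted value of 3.17 is set against controls below background; the Nrf2 KO panel has 0 and the Keap1 KD panel 1.

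Markers of other cells and of dividing cells also differed in the Nrf1 line. Of all genes, 7.99% were called higher in Nrf1 CKO and 10.9% lower. Stellate cell markers were higher in Nrf1 CKO for 6 of 7 genes (mean level 1.29 to 1.52 in the control arrays and 2.13 to 2.84 in Nrf1 CKO). Proliferation genes were higher for 5 of 5 (-2.23 to -1.51 and 0.12 to 0.24) and macrophage markers for 2 of 6 (1.87 to 2.81 and 2.80 to 4.02). The macrophage changes ran from 0.03 to 4.15 with a median of 0.37, so the mean level of that list does not stand for all its genes. Hepatocyte markers were lower for 3 of 6 (7.17 to 7.53 and 6.26 to 7.06). Lymphocyte markers were called for 1 of 6 and lay between -3.43 and -2.41 in the control and between -2.94 and -2.40 in Nrf1 CKO, with Cd4, Ncr1 and Cd79a not well above background in any group. The 3 neutrophil and 5 cholangiocyte markers tested gave 0 calls, and 1 of 6 endothelial markers was lower. The part of these cells in the changes of Pmaip1, Bcl2, Birc5 and the Bcl2a1 genes was not tested. In Nrf2 KO 0 genes of the 8 marker lists were called, beside 0.0621% of all genes. In Keap1 KD 3 were, a macrophage and an endothelial marker higher and a stellate marker lower, beside 5.52% of all genes.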

How the data were processed

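RNA of 18 mouse livers was measured, 3 in each of 6 groups. Per the labels, RNA was extracted with Isogen and 500 ng was labelled with the Quick Amp kit. Per the file headers, the deposited intensities were made with Agilent Feature Extraction (version 10.7.3.1): the processed signal is background-subtracted and not normalized between arrays, and the median signals of spot and background are raw. The deposited flags (control type, above background, saturated, outlier) are other output of that software, per the file headers. The deposited series table equalled the processed signal at all 810324 entries.

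Control and outlier spots were left out, log2 signals were averaged per probe, and log2 of the array's 75th percentile was subtracted. A probe was tested if at least 50% of its spots were well above background on each array of some group (23554 probes). The brightest probe stood for its gene (17721 genes). Probes were named through RefSeq transcript accessions (26690 probes) or symbols (28). Group means of the 6 groups were fitted with limma (version 3.58.1, R 4.3.3) over 18 arrays (12 residual degrees of freedom), with adjusted p by Benjamini-Hochberg over all genes. In simulated data, 88.0%, 85.0% and 89.0% of genes changed by 2 on the log2 scale were recovered in the Nrf1, Nrf2 and Keap1 comparisons (17721 genes, 200 of them changed). These shares hold for that number of changed genes and not for the data themselves.

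All 9 members are named with every probe. Of the other apoptosis genes, up to 8 called genes a comparison were to be named, by size of change, and other called genes are marked in the text. The changes of Bak1, Bcl2l2, Trp53 and Cdkn1a, which were not called, are given outside this rule. The genes of 1 list are counted but not reported singly here. Members and lists were chosen with earlier results of these data known. Other scalings, filters, probe rules and blocks were tried; normexp used median signals, since mean signals were not used here.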

Additional observations from a re-analysis of the deposited data

Results flagged for a closer look

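The mutant effect differed between lines, by the test of the difference itself in limma, for 10 pairs of gene and lines among the members and other apoptosis genes named. Only genes above background on all arrays of a group in both lines were counted. The other apoptosis genes were named because they were called in a line. Their differences between lines therefore reuse the values that chose them, and the count of pairs is not independent of that choice. Tnfrsf10b was left out by that rule, though its fitted differences passed (2.92 against Nrf2 KO, adjusted p 0.0235, and 2.99 against Keap1 KD, adjusted p 0.0218). Of all genes, which were not chosen by their calls, 5.58% passed for Nrf1 CKO against Nrf2 KO and 6.92% against Keap1 KD. For Pmaip1 the change in Nrf1 CKO exceeded that in Keap1 KD by 1.93 (SE 0.45, adjusted p 0.0239); every Nrf1 CKO array lay above every control array, and the Keap1 groups overlapped. That difference did not pass without the background filter (adjusted p 0.0561), with the slide block (0.195), with the scan date block (0.0608), or without Nrf1 Control 1, Nrf1 CKO 2, Nrf1 CKO 3 or Keap1 Control 2 (0.051 to 0.0678). Against Nrf2 KO, the change in Nrf1 CKO was higher by 3.37 for Birc5 (adjusted p 0.00431), 1.22 for Mdm2 (adjusted p 0.016) and 1.11 for Bax (adjusted p 0.0113). It was lower there for Bnip3 (difference -1.78, adjusted p 0.0086) and Endog (difference -1.20, adjusted p 0.0315).

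Against Keap1 KD, the change in Nrf1 CKO was higher by 2.51 for Bcl2a1b (adjusted p 0.0239), 2.23 for Bcl2a1c (adjusted p 0.0287) and 1.16 for Bax (adjusted p 0.0104), and lower for Bnip3 (difference -1.46, adjusted p 0.0202).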

How the results depend on the processing

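Of 324 member values under other settings with all arrays kept, 309 kept their direction and their side of the threshold, as did 149 of 162 with an array left out. The change of a member cannot move without the background filter, with only probes above background on all arrays, with the line's arrays alone or with the replicate block. Most member values were also uncalled as reported. The count of 309 is therefore partly fixed in advance. The cause of the shifts below was not tested. Signs turned for Bbc3 in Nrf1 CKO (0.13 with quantile normalization, 0.16 with normexp, 0.17 with slide as a block, -0.13 to 0.11 with an array left out). They turned in Keap1 KD with array median scaling for Bcl2l1 (0.19), Mcl1 (0.27), Fas (0.12) and Casp8 (0.019), where the median of all genes moved from 0.00 to 0.29. With a Keap1 array left out, Bcl2l1 ranged from -0.27 to 0.067, Mcl1 from -0.093 to 0.076, Fas from -0.50 to 0.058 and Casp8 from -0.53 to 0.13. Slide as a block gave 0.98 for Bbc3 and -0.059 for Pmaip1 in Nrf2 KO and 0.033 for Bcl2l1 in Keap1 KD; scan date as a block gave 0.97 and -0.097 for the first 2. In the Nrf1 line the slide block rests on 1 control array. No slide or scan date held both Nrf2 groups. The Nrf2 KO values with a slide or scan date block therefore rest on arrays of the Keap1 line. They are not Nrf2 KO changes within a batch.

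Members called in Nrf1 CKO (1 as reported) numbered 2 with the mean of probes (Bcl2 added), 2 with the replicate block (Bid added, -0.42, adjusted p 0.0482), 0 with the slide block and 0 to 2 with an array left out; in Keap1 KD (0) 0 to 1. The 1 member whose effects differed between lines became 2 with array median scaling (Bid added, -0.95) and 0 without a background filter, with the slide block and with the scan date block, and ranged from 0 to 2 with an array left out (Bcl2 added without Nrf1 Control 2 or Nrf1 CKO 1). The replicate numbers did not pair the samples (correlations of -0.36 to 0.15), and the replicate block changed no other call of a member. Pathway genes called in Nrf1 CKO (14) numbered 9 without the filter, 0 with the slide block and 6 to 15 with an array left out; in Keap1 KD (1) 0 with quantile normalization, with the line's arrays alone and with the slide or scan date block, 2 with array median scaling and 0 to 1 with an array left out.

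Over all genes, calls in Nrf1 CKO (3348) were 2117 without the filter, 65 with the slide block and 939 to 4160 with an array left out. In Nrf2 KO (11) they were 22 with array median scaling, 6 with the line's arrays alone, 7 with the scan date block and 6 to 12. In Keap1 KD (979) they were 555 with quantile normalization, 521 with normexp, 615 without the filter, 440 with probes above background on all arrays, 52 with the line's arrays alone, 55 and 255 with the slide and scan date blocks, and 350 to 1048. Of calls, 42.3% were higher in Nrf1 CKO and 17.2% in Keap1 KD as reported, 55.1% and 27.4% with quantile normalization and 35.3% and 48.8% with array median scaling. Slide as a random block, added after seeing the data, changed no call of a member. Its estimated correlation within slide was -0.016, so that fit was nearly the one reported and could hardly change a call.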
